A study of Mus musculus with 24 samples.

Results

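The pentose phosphate and NADPH-producing enzymes described here are encoded by 9 genes, chosen by name: G6pdx, Pgls, Pgd, Tkt and Taldo1 of the pentose phosphate pathway, Me1, Me2 and Idh1 as other enzymes of central metabolism that can make NADPH, and Aldh2 as a further enzyme under Nrf2. The choice was made with earlier results of these data known. Counts of these genes beside the shares of all genes are therefore descriptive only. All 9 were found among the 54752 genes of the deposited table by matching Ensembl identifiers to GENCODE M21 symbols. The values are TPM, the length-normalised share that a gene's transcripts take of a library. A gene was tested if a library or more exceeded 1 TPM, which held for 8 of the 9 enzyme genes and for 12373 genes in all, and Me1 did not pass. On GRCm38 (GENCODE M21) G6pdx spans chrX:74409483-74429194, Pgd chr4:149149991-149166771, Tkt chr14:30548359-30574720, Taldo1 chr7:141392199-141402968, Pgls chr8:71592176-71601092, Idh1 chr1:65158616-65186500, Me1 chr9:86581371-86695953 and Aldh2 chr5:121566027-121593824.

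RNA was sequenced from the cryopreserved bone marrow of 24 male mice in 4 groups of 6: wild-type mice kept on the ground (GC-WT), wild-type mice flown in space (FL-WT), Nrf2-KO mice kept on the ground (GC-KO) and Nrf2-KO mice flown in space (FL-KO). The line is C57BL/6, and the Nrf2 deletion is not restricted to a cell type. Mice of the FL groups were 8 weeks old when they were moved to the launch site 3 weeks before launch, spent 31 days in flight and were sampled 2 days after landing. The FL mice were handled in the United States and the GC mice in Japan, so that flight and place cannot be told apart. Marrow came from the right pelvis and tibia and holds a mixture of cell types, and in such bulk RNA fewer cells of a type and less RNA per cell cannot be told apart.

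The oxidative branch of the pentose phosphate pathway draws glucose 6-phosphate away from glycolysis and reduces NADP+ to NADPH, while the non-oxidative branch exchanges carbon between ribose 5-phosphate and glycolytic intermediates. NADPH keeps glutathione and thioredoxin reduced in every marrow lineage and feeds the phagocyte oxidase of neutrophils and monocytes. Nrf2 is a transcription factor that binds antioxidant response elements with small Maf partners, and several pentose phosphate genes are textbook members of its target set.

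Promoter windows, which ran from 250 bases before to 50 bases from the start of a transcript (RefSeq, GRCm38.p6), were searched on both strands for the core of the antioxidant response element, TGACNNNGC. Of the 9 genes 7 matched the table, with 10 windows, while Aldh2 and Me2 did not. The core was found in 1 window each of G6pdx, Me1 and Pgd, against 12.4% of 32851 windows of the table. The stretches that hold it are shown because they are the places in these windows where the letters of the Nrf2 element occur, with the match in capitals.
G6pdx: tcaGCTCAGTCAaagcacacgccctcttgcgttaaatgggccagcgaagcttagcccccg
Me1: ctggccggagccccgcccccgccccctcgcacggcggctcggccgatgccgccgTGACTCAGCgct
Pgd: tcatttcagagcTGACATTGCactgatcgg
The G6pdx stretch lies at chrX:74428881-74428940 on the minus strand, and its match, TGACTGAGC, is read on the opposite strand from position -57 to -49, where 1 is the first transcribed base. The Me1 stretch lies at chr9:86695909-86695974, also on the minus strand, and its match runs from -6 to 3. The Pgd stretch lies at chr4:149166062-149166091 on the minus strand, at the more downstream of 2 transcript starts, and its match runs from 4 to 12. It alone carries an A right after the core, a longer form that 3.04% of the windows hold. No match was found in the windows of Idh1, Pgls, Taldo1 and Tkt or in the other windows of Me1 and Pgd. A match of letters is a description of the window and not a binding site.

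The table gives TPM without read counts, so depth is unknown and no counting interval can be given. Nfe2l2, the gene of Nrf2, had 17.05 to 26.06 TPM in GC-WT and 11.39 to 27.26 TPM in FL-WT mice, against 3.6 to 7.18 TPM in GC-KO and 2.22 to 4.31 TPM in FL-KO mice, and no KO library overlapped a wild-type library. Small structural RNAs (Rn7s1, Rn7s2, Rn7sk, Rpph1 and Rmrp) took between 35.4% and 59.6% of the TPM of a library. On the ground their share averaged 48.8% for wild-type and 44.7% for KO mice, and after flight 48.0% and 51.2%. Because TPM is a share, the rest of a library is squeezed by that amount, and the differences below are therefore given on TPM as deposited and, where named, after median-of-ratios scaling, which sets the typical gene level across libraries. Over all tested genes, log2 fold changes on TPM had a median of -0.22 for KO against wild type on the ground and -0.25 after flight, and of -0.24 for flight against ground in wild-type and -0.29 in KO mice. After scaling these medians lay between -0.0012 and 0.025. With the 5 small RNAs left out instead, 14383 genes were tested and the medians stayed negative. They were -0.31 for KO against wild type on the ground and -0.18 after flight. For flight against ground they were -0.29 for wild-type and -0.19 for KO mice. The cause of the negative medians was not tested.

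In GC-WT marrow the levels of the enzyme genes, which TPM gives per transcript length, fell into clear steps. Taldo1, the transaldolase of the non-oxidative branch, was the highest at 172 ± 24.3 TPM (SD, n = 6). Tkt, its transketolase, had 111 ± 19.4 TPM, Aldh2, a mitochondrial aldehyde dehydrogenase that uses NAD+, 88.7 ± 17.9 TPM and Pgd, 6-phosphogluconate dehydrogenase, 87.5 ± 15.2 TPM, and these neighbours overlapped within 1 SD. Pgls, the lactonase between both oxidative steps, and G6pdx, glucose-6-phosphate dehydrogenase at the entry of the pathway, stood at 49.9 ± 7.04 and 49.2 ± 10.4 TPM, again within their spread. Idh1, the cytosolic NADP+-dependent isocitrate dehydrogenase, followed at 15.3 ± 1.66 TPM and Me2, the mitochondrial malic enzyme, at 12.9 ± 1.44 TPM, and these also overlapped within 1 SD. G6pd2, an intronless copy of G6pdx, had at most 0.03 TPM in any library.

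**Figure D1:**
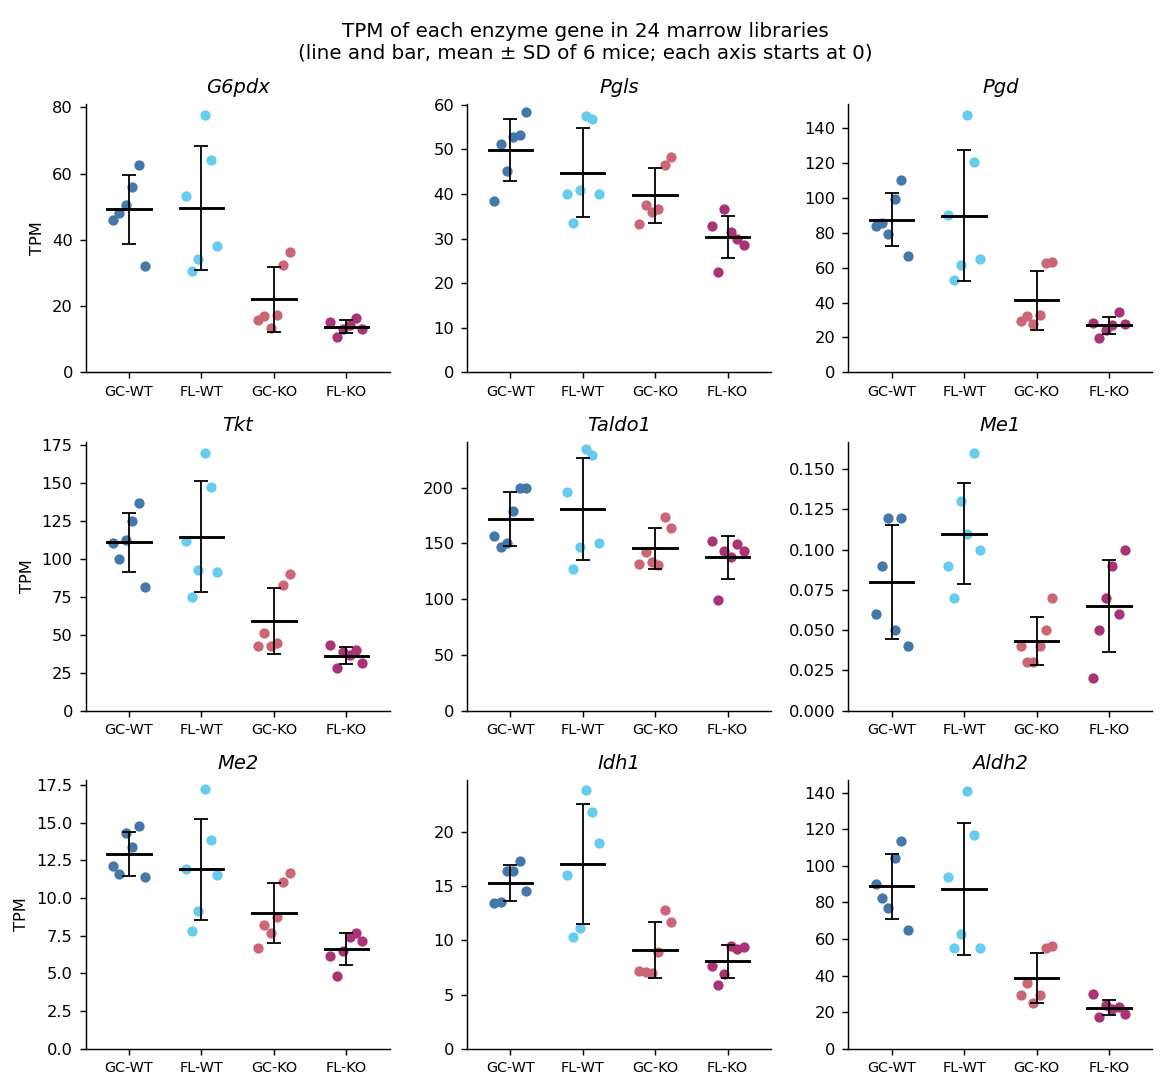
TPM of the 9 enzyme genes (vertical axes, each from 0) in the 6 mice of each group (points), with the mean and SD as a line and bar. G6pdx, Pgd, Tkt and Aldh2 sit lower in both KO groups, GC-KO mice 11 and 12 lie above the other GC-KO mice in these panels, and Taldo1 overlaps between all groups.

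Me1, the cytosolic malic enzyme, was close to silent, with 0.02 to 0.16 TPM over the 24 libraries. Its group means ran from 0.0433 TPM in GC-KO to 0.11 TPM in FL-WT mice. Me1 is a lipogenic gene of fat cells, and of the 5 adipocyte markers Lep, Plin1 and Cidec had at most 0.04 TPM in any library. The other two were present, Fabp4 at 3.06 to 8.68 TPM and Adipoq at 0.31 to 2.4 TPM, and the 5 together summed to 3.69 to 9.63 TPM. Values this low were not tested.

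The comparison of GC-KO with GC-WT asks what loss of Nrf2 does to these genes on the ground. Of the 8 tested genes 7 were lower in GC-KO marrow at adjusted p under 0.1 (limma with Benjamini-Hochberg adjustment over all tested genes), against 42.9% of all tested genes lower and 3.13% higher, and none of the 8 was higher. After median-of-ratios scaling 6 were lower and none higher, against 28.9% and 28.3% of all genes. With the additional demand of a fold change of at least 2, the rule for a differentially expressed gene (DEG), 3 were called on TPM, Aldh2, G6pdx and Pgd, against 3.04% of all genes, and after scaling 0 were called, against 0.566%. The median log2 fold change of the 8 was -0.83 on TPM, and -0.51 after scaling.

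The oxidative branch was lowered unevenly. G6pdx had 32.0, 49.3 and 62.7 TPM as the lowest, median and highest value in GC-WT mice, and 13.3, 17.2 and 36.4 TPM in GC-KO mice, a log2 fold change of -1.19 with a standard error (SE) of 0.23 (adjusted p = 0.000478). The groups overlapped only through GC-WT mouse 10 and GC-KO mice 11 and 12. Pgd, which makes the second NADPH of the branch, had 66.9, 84.7 and 110 TPM in GC-WT and 27.5, 32.6 and 63.4 TPM in GC-KO mice, a log2 fold change of -1.13 ± 0.23 (adjusted p = 0.000622), without overlap. Pgls, which catalyses the step between them, had 38.5, 52.0 and 58.5 TPM in GC-WT and 33.3, 37.1 and 48.3 TPM in GC-KO mice, with a log2 fold change of -0.32 ± 0.14 on TPM (adjusted p = 0.0673) and of 0.0094 ± 0.11 after scaling (adjusted p = 0.952). Pgls was therefore called on TPM alone, and leaving out any 1 of 8 libraries (GC-WT mice 5, 7, 8 and 10 and GC-KO mice 1, 2, 4 and 9) took its adjusted p to between 0.104 and 0.154.

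The non-oxidative branch was split in the same way. Tkt had 81.2, 111 and 137 TPM in GC-WT and 42.3, 47.9 and 90.3 TPM in GC-KO mice, a log2 fold change of -0.95 ± 0.20 (adjusted p = 0.000747), just short of a fold change of 2. Its groups overlapped only through GC-WT mouse 10 and GC-KO mice 11 and 12. Taldo1, which works in the same carbon exchange, had 147, 168 and 200 TPM in GC-WT and 130, 138 and 173 TPM in GC-KO mice. Its log2 fold change was -0.23 ± 0.14 on TPM (adjusted p = 0.21) and turned to 0.10 ± 0.11 after scaling (adjusted p = 0.45), so that it was called on neither scale, although it was lower under quantile normalization (-0.20, adjusted p = 0.0441) and with the small structural RNAs left out (-0.35, adjusted p = 0.00595).

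Of the other dehydrogenases, Idh1 had 13.4, 15.5 and 17.3 TPM in GC-WT and 6.98, 8.07 and 12.8 TPM in GC-KO mice, a log2 fold change of -0.72 ± 0.18 (adjusted p = 0.00263), and no GC-KO mouse reached the lowest GC-WT mouse. Me2 had 11.4, 12.7 and 14.8 TPM in GC-WT and 6.67, 8.48 and 11.7 TPM in GC-KO mice, a log2 fold change of -0.49 ± 0.15 (adjusted p = 0.0111), with GC-KO mouse 12 inside the GC-WT range. Aldh2 had 65.1, 86.1 and 114 TPM in GC-WT and 25.2, 32.7 and 56.4 TPM in GC-KO mice, a log2 fold change of -1.23 ± 0.22 (adjusted p = 0.000416), again without overlap. Pgd, Idh1 and Aldh2 are thus the 3 genes whose 6 GC-KO values all lay below all 6 GC-WT values on TPM, a pattern that 9.15% of all tested genes had. On scaled values only Idh1 and Aldh2 kept it. Scaled Pgd in GC-KO mouse 12 (55.4) lay above GC-WT mice 6 (51.8) and 10 (53.1). After scaling these dehydrogenases and Tkt remained lower, with log2 fold changes of -0.89 ± 0.18 for Aldh2 (adjusted p = 0.000741), -0.86 ± 0.16 for G6pdx (adjusted p = 0.000475), -0.80 ± 0.16 for Pgd (adjusted p = 0.000589), -0.62 ± 0.15 for Tkt (adjusted p = 0.00191), -0.40 ± 0.084 for Idh1 (adjusted p = 0.000805) and -0.18 ± 0.068 for Me2 (adjusted p = 0.0303).

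The same contrast after flight, FL-KO vs. FL-WT, gave a more negative log2 fold change on TPM for each of the 8 genes, although the difference between both contrasts passed no test after adjustment. All 8 tested genes were lower in FL-KO marrow on TPM, against 47.2% of all tested genes lower and 1.91% higher. After scaling 6 were lower and none higher, against 32.9% and 31.9% of all genes. Aldh2, G6pdx, Pgd and Tkt met the DEG rule, 4 genes, on TPM and again after scaling, against 8.36% of all genes on TPM and 3.43% after scaling. The median log2 fold change of the 8 genes was -1.27 on TPM and -0.89 after scaling. In 6 genes (G6pdx, Pgd, Tkt, Me2, Idh1 and Aldh2) every FL-KO value lay below every FL-WT value, as did 20.6% of all tested genes.

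Aldh2 had 54.9, 78.3 and 141 TPM in FL-WT mice and 17.3, 22.5 and 29.7 TPM in FL-KO mice, a log2 fold change of -1.83 ± 0.22 (adjusted p = 1.09e-06). G6pdx had 30.5, 45.6 and 77.8 TPM against 10.7, 13.7 and 16.3 TPM, a log2 fold change of -1.71 ± 0.23 (adjusted p = 2.21e-06). For Pgd the values were 53.0, 77.5 and 148 TPM in FL-WT and 19.6, 27.2 and 34.6 TPM in FL-KO mice, with a log2 fold change of -1.62 ± 0.23 (adjusted p = 3.69e-06). The FL-WT mice spread widely for these genes, with mice 7 and 8 at the top and mouse 5 at the bottom, but even the lowest of them stood above every FL-KO mouse.

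Tkt had 74.7, 102 and 170 TPM in FL-WT and 28.1, 37.6 and 42.9 TPM in FL-KO mice, a log2 fold change of -1.59 ± 0.20 (adjusted p = 1.29e-06). Idh1 had 10.3, 17.5 and 23.9 TPM against 5.84, 8.42 and 9.47 TPM, a log2 fold change of -0.95 ± 0.18 (adjusted p = 0.000101). Me2 had 7.81, 11.7 and 17.2 TPM against 4.83, 6.84 and 7.68 TPM, with a log2 fold change of -0.73 ± 0.15 (adjusted p = 0.00028). Idh1 and Me2 thus fell less on the log2 scale, short of a fold change of 2, whereas Tkt fell about as far as the oxidative dehydrogenases. After scaling the same order held, with -1.44 for Aldh2, -1.33 for G6pdx, -1.23 for Pgd, -1.19 for Tkt, -0.58 for Idh1 and -0.37 for Me2, at adjusted p of at most 8.3e-05.

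Pgls and Taldo1 again stood apart. Pgls had 33.4, 40.4 and 57.6 TPM in FL-WT and 22.6, 30.7 and 36.6 TPM in FL-KO mice, and its log2 fold change was -0.53 ± 0.14 on TPM (adjusted p = 0.00262) and -0.14 ± 0.11 after scaling (adjusted p = 0.269). It turned to 0.19 (adjusted p = 0.092) when trends with GC content and length were removed. Taldo1 had 127, 173 and 234 TPM in FL-WT and 99.6, 143 and 152 TPM in FL-KO mice. Its log2 fold change was -0.37 ± 0.14 on TPM (adjusted p = 0.0405), and this call was lost on leaving out FL-WT mouse 7 (adjusted p = 0.128), FL-WT mouse 8 (adjusted p = 0.125) or FL-KO mouse 2 (adjusted p = 0.135). After scaling it was 0.036 ± 0.11 (adjusted p = 0.802).

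**Figure D2:**
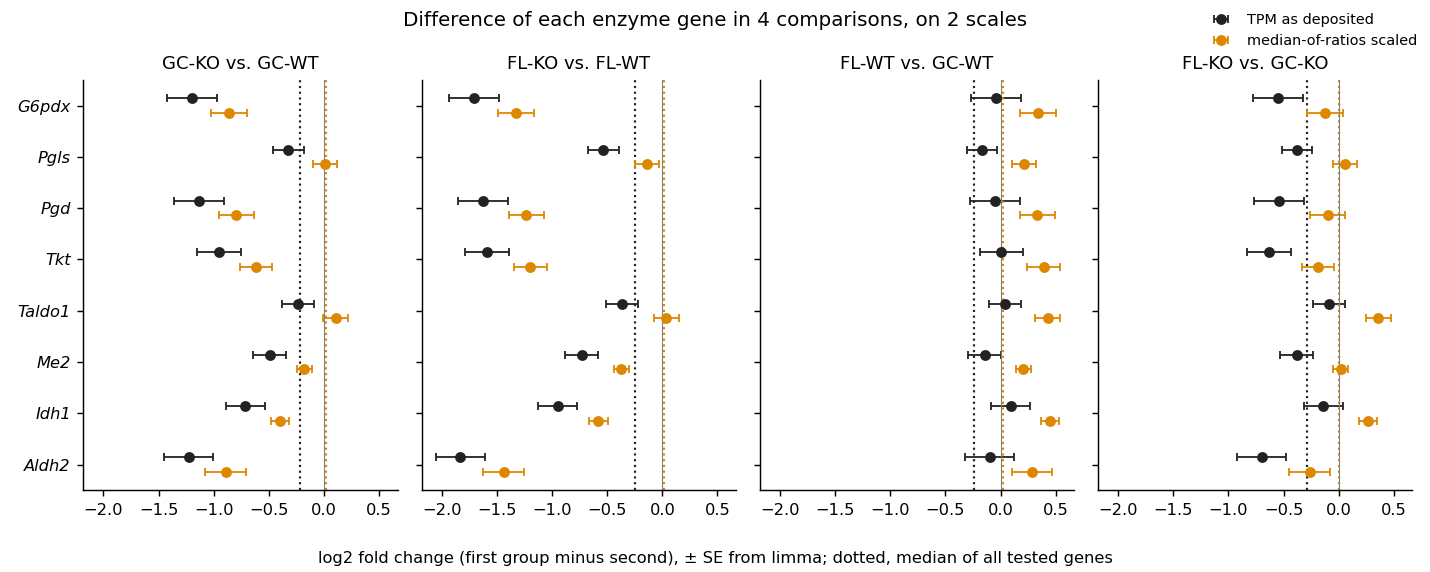
log2 fold change (horizontal axis, ± SE from limma) of the 8 tested genes in the 4 comparisons, on TPM as deposited (black) and after median-of-ratios scaling (orange), with the median of all tested genes as a dotted line. In both genotype comparisons Aldh2, G6pdx, Pgd and Tkt lie farthest left on both scales, while Pgls and Taldo1 lie nearest to the median of all genes after scaling.

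Ratios within a library do not depend on the scaling. Taldo1, which was not called in KO marrow on the ground, is the denominator here. The ratios therefore restate the differences above mouse by mouse and add no separate evidence. The ratio of G6pdx to Taldo1 was 0.291 ± 0.0656 (SD, n = 6) in GC-WT and 0.147 ± 0.0471 in GC-KO mice on the ground, and after flight it was 0.268 ± 0.0356 in wild-type and 0.101 ± 0.00796 in KO mice. That of Tkt to Taldo1 went from 0.654 ± 0.123 to 0.395 ± 0.0958 on the ground and from 0.628 ± 0.0546 to 0.264 ± 0.0232 after flight. The 6 FL-KO mice were close to each other and below every FL-WT mouse in both ratios. GC-WT mouse 10 stood apart from its group, with a G6pdx to Taldo1 ratio of 0.16 where the other GC-WT mice had 0.293 to 0.337, and without it no GC-KO mouse (highest 0.222) overlapped GC-WT.

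Pgls and G6pdx, at the start of the same branch, had nearly equal levels in wild-type but not in KO marrow. Pgls was 1.07 ± 0.382 times G6pdx in GC-WT and 1.98 ± 0.515 times in GC-KO mice, where GC-WT mouse 10 at 1.83 lay inside the GC-KO range of 1.33 to 2.7. After flight it was 0.952 ± 0.186 times G6pdx in wild-type and 2.21 ± 0.319 times in KO mice, without overlap. In contrast, Pgd stayed near a fixed proportion to G6pdx, of 1.8 ± 0.169 in GC-WT and 1.9 ± 0.108 in GC-KO mice, and of 1.79 ± 0.0868 and 1.94 ± 0.139 in the flown counterparts, with overlapping ranges.

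The order of levels in FL-KO marrow was Taldo1 (137 ± 19.3 TPM), Tkt (36.2 ± 5.5 TPM), Pgls (30.3 ± 4.69 TPM), Pgd (26.8 ± 4.96 TPM), Aldh2 (22.5 ± 4.32 TPM), G6pdx (13.8 ± 1.97 TPM), Idh1 (8.07 ± 1.5 TPM) and Me2 (6.62 ± 1.05 TPM). Among these neighbours Tkt and Pgls, Pgls and Pgd, Pgd and Aldh2, and Idh1 and Me2 overlapped within 1 SD. The mean of Pgls, below those of Pgd and Aldh2 in GC-WT marrow, thus stood above both in FL-KO marrow.

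**Figure D3:**
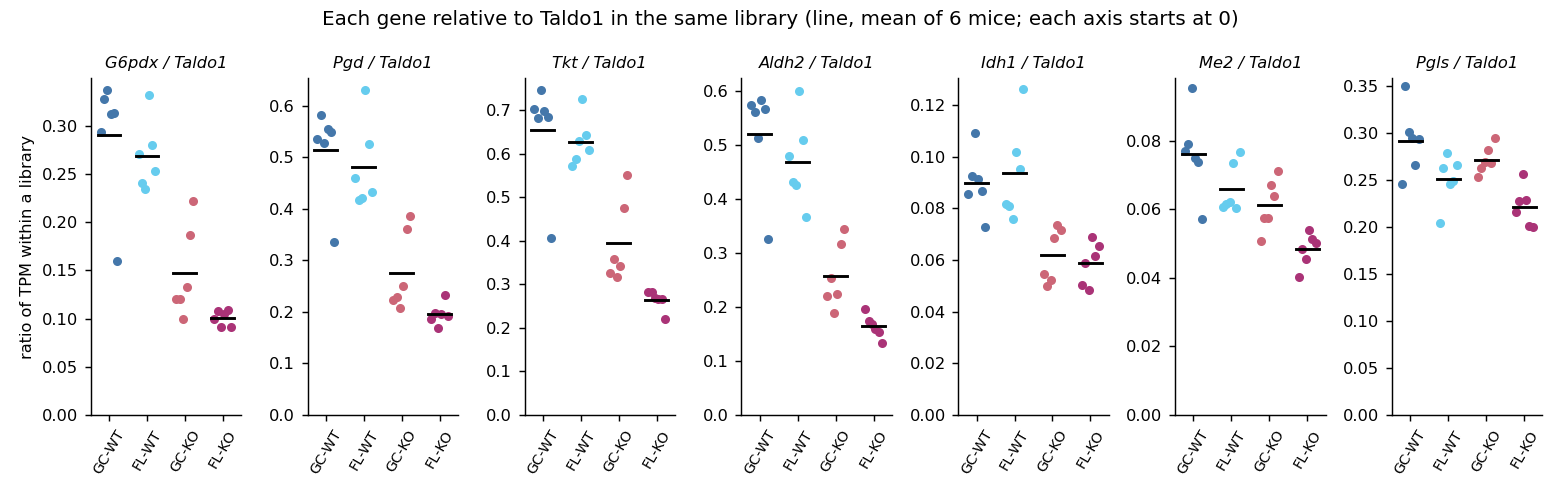
Ratio of the TPM of 7 genes to that of Taldo1 in the same library (vertical axes, each from 0), for the 6 mice of each group (points) with the mean (line). The ratios of G6pdx, Pgd, Tkt and Aldh2 are lower in both KO groups, with GC-WT mouse 10 as the single low GC-WT point, and the ratio of Pgls changes least.

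The comparison of FL-WT with GC-WT asks what flight does to these genes where Nrf2 is present. On TPM 0 of the 8 genes were called (limma), at any fold or as a DEG, and none had an unadjusted p under 0.05, although 39.0% of all tested genes were lower and 0.994% higher, and 0.938% met the DEG rule as lower. The 8 log2 fold changes lay between -0.17 ± 0.14 for Pgls and 0.091 ± 0.18 for Idh1. After scaling, 4 genes were higher in FL-WT mice, against 20.6% of all genes higher and 13.6% lower: Idh1 (log2 fold change 0.45 ± 0.084, adjusted p = 0.000602), Taldo1 (0.43 ± 0.11, adjusted p = 0.00734), Tkt (0.39 ± 0.15, adjusted p = 0.0536) and Me2 (0.21 ± 0.068, adjusted p = 0.0269). The scaled level of Idh1 was 10.4, 11.7 and 12.6 in GC-WT and 13.4, 16.9 and 18.4 in FL-WT mice, without overlap. A call of higher expression after flight in wild-type marrow thus depended on the scale.

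In Nrf2-KO marrow, 6 of 8 genes were lower in FL-KO than in GC-KO mice on TPM (Aldh2, Tkt, G6pdx, Pgd, Me2 and Pgls), against 53.1% of all tested genes lower and 0.299% higher, and 0 met the DEG rule, against 2.13% of all genes. The largest log2 fold changes were -0.70 ± 0.22 for Aldh2 (adjusted p = 0.0159) and -0.63 ± 0.20 for Tkt (adjusted p = 0.0147). After scaling none of these 6 was lower, and Taldo1 (0.36 ± 0.11, adjusted p = 0.0187) and Idh1 (0.27 ± 0.084, adjusted p = 0.0189) were higher, against 20.4% of all genes lower and 19.1% higher. The 6 calls on TPM were sensitive to GC-KO mice 11 and 12, the highest of their group for these genes. Without both, 0 of 8 genes were called. This exclusion was chosen after the data were seen and had to shrink the difference. The log2 fold change of G6pdx went from -0.55 to -0.19 and that of Aldh2 from -0.70 to -0.40. Leaving out only mouse 11 or only mouse 12 already ended the calls of G6pdx, Pgd and Me2 (adjusted p between 0.118 and 0.176). FL-KO mouse 2, the lowest for G6pdx, Pgls, Pgd, Tkt, Taldo1, Me2, Idh1 and Aldh2, also mattered, since the calls of G6pdx, Pgd, Me2 and Pgls were lost without it (adjusted p between 0.101 and 0.139).

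GC-KO mice 11 and 12 had 32.4 and 36.4 TPM of G6pdx, 62.5 and 63.4 TPM of Pgd, 82.6 and 90.3 TPM of Tkt and 55.0 and 56.4 TPM of Aldh2, where the other 4 GC-KO mice had 13.3 to 17.3, 27.5 to 32.7, 42.3 to 51.1 and 25.2 to 36.1 TPM. On TPM, summed markers of several cell types, myeloid and lymphoid, stood higher in the same mice. The typical gene stood higher in them too. Median-of-ratios scaling divided mice 11 and 12 by 1.32 and 1.14, and the other 4 by 0.886 to 1.08. The sums that follow were not scaled. The summed TPM of the 5 promyelocyte markers was 729 and 845 in mice 11 and 12, and 409 to 524 in the other 4. That of the 6 secondary granule markers was 9290 and 8343 against 5709 to 6622, and that of the 5 monocyte markers 478 and 464 against 282 to 366. The 9 B progenitor markers summed to 139 and 133 TPM against 89.8 to 121, the 6 T and NK markers to 50.9 and 49.4 against 30.0 to 39.5, and the 6 stem and progenitor markers to at least 9.91 in both against 5.08 to 7.65. The 7 mature neutrophil markers did not set both mice apart, with 57178 TPM in mouse 11 but 44521 TPM in mouse 12, below the 46047 TPM of mouse 9. Erythroid markers were highest of the group in mouse 11 (244834 TPM) and lowest in mouse 12 (165997 TPM). Megakaryocyte markers were lowest in mouse 11 (93.4 TPM) and highest in mouse 12 (180 TPM). Plasma cell markers had 178 and 115 TPM, and stromal and bone markers 40.7 and 41.0 TPM, which did not set both apart. Marrow macrophage markers were higher in both (81.9 and 83.0 TPM), and adipocyte markers lower (4.1 and 5.04 TPM). The part of these cell types in the difference was not tested. Mice 11 and 12 were the highest GC-KO mice for these genes and Taldo1. Leaving them out therefore had to enlarge the reduction in GC-KO vs. GC-WT, and no conclusion is drawn from it. Without them G6pdx had a log2 fold change of -1.55 (adjusted p = 1.17e-05) and 4 genes met the DEG rule. Taldo1 was called as well (-0.34, adjusted p = 0.0821).

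Markers of several cell types differed between genotypes, some of them by no more than genes in general. The promyelocyte markers summed to 650 to 1021 TPM in GC-WT and 409 to 845 in GC-KO mice, then to 556 to 1251 in FL-WT and 369 to 523 in FL-KO mice. Of these 5 markers 2 were lower in each genotype comparison on TPM, a share near that of all genes given above, and after scaling 2 were lower and 2 higher on the ground, and 2 lower and 1 higher after flight. For the 6 secondary granule markers the sums in the same order were 7873 to 10626, 5709 to 9290, 7617 to 14403 and 5540 to 7796 TPM, with 4 lower on the ground and 5 after flight, and with 4 lower and 1 higher in each after scaling. The 5 monocyte markers summed to 396 to 530, 282 to 478, 358 to 652 and 261 to 379 TPM, with 4 lower in each, and after scaling 3 on the ground and 4 after flight.

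The 7 mature neutrophil markers, which include the abundant S100a8 and S100a9, summed to 24260 to 48602, 37104 to 57178, 38984 to 54150 and 45177 to 61699 TPM. Of them 3 were lower and 2 higher on the ground on both scales, while after flight 5 were lower on TPM, and 3 lower and 2 higher after scaling. B progenitor and stem and progenitor markers were lower as well, other lymphoid markers less evenly. The 9 B progenitor markers had a mean sum of 190 TPM in GC-WT and 114 TPM in GC-KO mice, against 105 and 55.1 TPM after flight. On TPM 6 and 5 of them were lower, and after scaling 5 and 2, where 28.9% and 32.9% of all genes were lower. All 3 tested stem and progenitor markers, of 6, were lower in each comparison, and 2 of them after scaling. Of the 6 T and NK markers 1 was lower on the ground and 4 after flight. After scaling 1 was lower and 1 higher in each. Of 4 tested plasma cell markers 1 was lower on the ground and 2 after flight. After scaling 1 was lower and 2 higher on the ground, and 1 lower and 1 higher after flight. Of the 12 erythroid markers 3 were lower and 3 higher on the ground and 4 lower and 2 higher after flight, whereas after scaling 7 were higher and 0 lower on the ground, and 8 higher and 3 lower after flight. Of the 7 marrow macrophage markers 0 were lower on the ground and 4 after flight. After scaling 2 were higher on the ground, and 0 were called after flight. Of the 6 megakaryocyte markers 1 was lower on the ground and 3 after flight, and after scaling 1 and 2. Of the 4 tested stromal and bone and the 2 tested adipocyte markers 0 were called on TPM. After scaling 1 stromal and bone marker was higher in each comparison. No marker of these lists was at 0 in every library, and their part in the lower enzyme genes was not tested.

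The interaction, which asks whether flight moved a gene differently in the 2 genotypes, was called for 0 of 8 genes on either scale (limma). Below an unadjusted p of 0.05 stood 1 gene on TPM, Tkt, with a log2 difference of -0.64 ± 0.28 (adjusted p = 1), against 3.03% of all tested genes under that p with a negative difference. After scaling 2 genes did, against 8.42% of all genes, Tkt (-0.58 ± 0.21, adjusted p = 0.296) and Aldh2 (-0.55 ± 0.26, adjusted p = 0.449). All 8 estimates were negative on both scales, as were 65.8% of all tested genes on TPM and 57.6% after scaling, where the medians of all genes were -0.059 and -0.029, and the 8 genes come from the same mice. The 4 comparisons share groups in pairs, so a low or high group enters more than 1 of them.

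The neighbours of the pathway were examined by lists of other genes, on TPM and after scaling. For every list, the shares of all tested genes to set beside the counts are these. On TPM 42.9% were lower on the ground and 47.2% after flight, with 3.13% and 1.91% higher. After scaling 28.9% and 32.9% were lower, and 28.3% and 31.9% higher. Of the other pentose phosphate genes 10 of 14 were tested, and 4 were lower in KO marrow on the ground and 6 after flight on TPM, with median log2 fold changes of -0.20 and -0.27, close to those of all genes. After scaling 2 were lower in each, and 4 and 3 higher. The lower pair on both scales was H6pd, the glucose-6-phosphate dehydrogenase of the endoplasmic reticulum (6.19 ± 1.47 TPM in GC-WT and 2.76 ± 1.13 in GC-KO mice; 5.65 ± 2.27 in FL-WT and 1.51 ± 0.283 in FL-KO mice), and Prpsap1, which associates with ribose-phosphate pyrophosphokinase. Rpia and Rpe interconvert the pentose phosphates between both branches. On the ground Rpia had a log2 fold change of -0.39 on TPM (adjusted p = 0.0393) and -0.073 after scaling (adjusted p = 0.437), and Rpe had -0.035 (adjusted p = 0.876) and 0.28 (adjusted p = 0.0179).

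Of the other NADPH-producing and NAD kinase genes, 10 of 13 entries were tested, and 5 were lower on TPM in each genotype comparison while 1 (Mthfd2l) was higher on the ground. After scaling 4 and 5 were lower and 3 and 2 higher. The median log2 fold changes of this list were -0.41 and -0.45 on TPM, and -0.10 and -0.089 after scaling. Nadk, which phosphorylates NAD+ to NADP+ in the cytosol, had 44.5 ± 4.31 TPM in GC-WT and 29.1 ± 7.68 TPM in GC-KO mice, against 43.7 ± 14.9 TPM in FL-WT and 22.4 ± 3.75 TPM in FL-KO mice. Its mitochondrial counterpart Nadk2 was higher in KO marrow after scaling, with log2 fold changes of 0.50 on the ground (adjusted p = 0.00071) and 0.40 after flight (adjusted p = 0.00193), and on TPM it was not called (0.19 and 0.037). Idh2, the mitochondrial form of Idh1, had 11 ± 1.5 TPM in GC-WT and 6.85 ± 1.99 TPM in GC-KO mice, a log2 fold change of -0.64 ± 0.16 (adjusted p = 0.00348).

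Enzymes that use NADPH were lower for 10 of 14 genes on the ground and for 11 of 14 after flight on TPM, and for 6 and 8 after scaling, with 3 higher in each. Among them Ncf1, a cytosolic subunit of the phagocyte oxidase, had log2 fold changes of -0.90 ± 0.19 on the ground (adjusted p = 0.000962) and, after flight, -1.21 ± 0.19 (adjusted p = 1.57e-05). Cybb, a membrane subunit, had -0.80 ± 0.20 (adjusted p = 0.0032) and -1.09 ± 0.20 (adjusted p = 0.000108). After scaling the log2 fold changes of Ncf1 were -0.56 and -0.81, and those of Cybb -0.47 and -0.69, each still called. Cyba, the other membrane subunit, with a mean of 233 TPM in GC-WT mice, was not called on the ground (-0.24 ± 0.14, adjusted p = 0.2), was lower after flight on TPM (-0.41 ± 0.14, adjusted p = 0.021), and had 0.10 and -0.011 after scaling, not called. Por, the cytochrome P450 reductase, had -1.12 ± 0.21 (adjusted p = 0.000454) and -1.59 ± 0.21 (adjusted p = 1.85e-06), and after scaling -0.80 and -1.28, both called.

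The glycolytic enzymes around glucose 6-phosphate were lower for 9 of 10 tested genes on the ground and 10 of 10 after flight on TPM, and for 7 and 9 after scaling, with none higher. Gpi1, the isomerase that takes glucose 6-phosphate into glycolysis and so competes with G6pdx, had 116 ± 16.5 TPM in GC-WT and 62.3 ± 16.5 TPM in GC-KO mice, against 110 ± 32.8 TPM and 45.1 ± 6.25 TPM in the flown wild-type and KO mice. The ratio of G6pdx to Gpi1 was 0.419 ± 0.0357 in GC-WT and 0.342 ± 0.0635 in GC-KO mice, with overlapping ranges. After flight it was 0.442 ± 0.0352 in wild-type and 0.307 ± 0.0382 in KO mice, without overlap. Hk3, a hexokinase of myeloid cells, had the largest log2 fold change of the list, at -2.01 ± 0.24 after flight (adjusted p = 9.88e-07).

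Of the other aldehyde dehydrogenases 11 of 16 were tested, and 8 were lower on the ground and 9 after flight on TPM, with 7 and 9 lower and 2 and 1 higher after scaling. Aldh3b1 had 21.8 ± 2.93 TPM in GC-WT and 13.9 ± 4.15 TPM in GC-KO mice, against 26.7 ± 7.01 TPM in FL-WT and 9.23 ± 1.81 TPM in FL-KO mice. Aldh1a1, a cytosolic retinal-oxidising form, had 24.2 ± 5.14 TPM in GC-WT and 24.8 ± 2.91 TPM in GC-KO mice, was not called on TPM, and was higher on the ground after scaling (0.38, adjusted p = 0.0185). Among the other Nrf2 target genes, of which Gsr, Nqo1 and Txnrd1 also count among the NADPH users, 10 of 12 were lower in each genotype comparison on TPM, and 4 and 7 after scaling, with 1 and 0 higher. Gstm1, a glutathione transferase, had log2 fold changes of -1.15 ± 0.22 (adjusted p = 0.000537) and -1.63 ± 0.22 (adjusted p = 3.08e-06), near those of G6pdx and Pgd, whereas Gclm, of glutathione synthesis, had -0.19 ± 0.16 (adjusted p = 0.363) and -0.43 ± 0.16 (adjusted p = 0.0326). In the flight comparisons on TPM the 6 lists had medians between -0.27 and -0.11 in wild-type and between -0.42 and -0.20 in KO mice. All tested genes had medians of -0.24 and -0.29 there. After scaling the medians of the lists lay between 0.014 and 0.19 in wild-type and between -0.10 and 0.16 in KO mice. Those of all genes were then 0.025 and -0.0012.

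**Figure D4:**
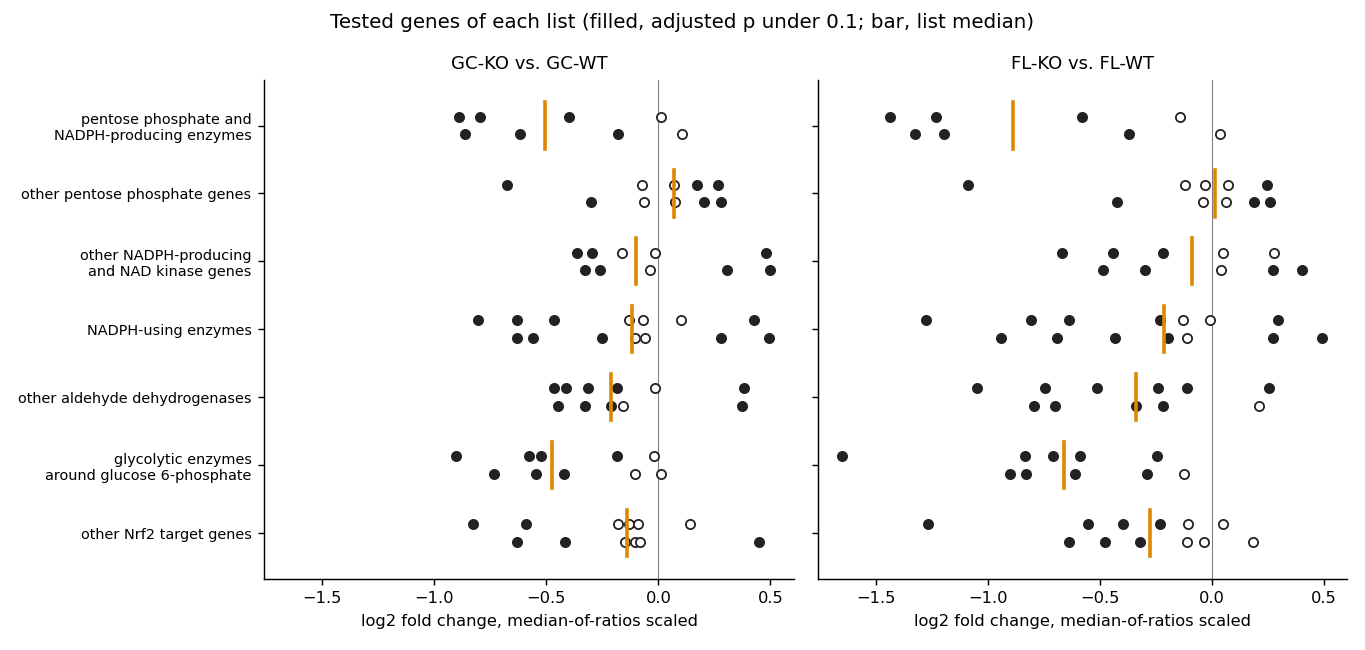
log2 fold change after median-of-ratios scaling (horizontal axis) of every tested gene of each list for KO against wild type on the ground and after flight, filled where adjusted p was under 0.1, with the list median as a bar. The 8 enzyme genes at the top have medians of -0.51 and -0.89, the glycolytic list -0.47 and -0.66, and the other pentose phosphate genes 0.072 and 0.016.

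The genes whose pattern over the 24 libraries was most like that of each enzyme gene were taken from the 5025 genes whose mean TPM reached 5, by Pearson's r of the scaled log2 values. Since the libraries share the difference between genotypes, these values describe likeness only. G6pdx was closest to Actb (r = 0.993), Flot2 (0.990) and Ckap4 (0.988), and Pgd to Ckap4 (0.992), Parvg (0.990) and Vsir (0.988). Tkt was closest to Pkm (0.987), Got2 (0.983) and H13 (0.982), and Aldh2 to Hcls1 (0.988), Gnai2 (0.981) and Pkm (0.981). Actb, of cytoplasmic actin, had mean levels of 2423 TPM in GC-WT and 1191 TPM in GC-KO mice, against 2290 and 775 TPM after flight, and Pkm, the last kinase of glycolysis, had 164 and 76.1 TPM, against 186 and 47 TPM.

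The neighbours of Me2, Idh1 and Taldo1 were looser. Me2 was closest to Cotl1 (0.939), Pfn1 (0.939) and Cap1 (0.935), which all act on actin, and Idh1 to Rab3d (0.932), Pglyrp1 (0.922) and Arpc2 (0.912). Taldo1 was closest to Cdk2ap2 (0.949), Ppp1ca (0.936) and Arpc1b (0.935). Among the enzyme genes themselves, G6pdx, Pgd, Tkt and Aldh2 had r between 0.971 and 0.989 with each other, while Taldo1 had r between 0.0438 and 0.127 with these 4 and 0.699 with Pgls.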

How the data were processed

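TPM was computed by the authors from reads mapped to mm10 with STAR 2.6.1 and counted with RSEM 1.3.1, and deposited as 1 table of 24 libraries with 1 column per mouse. log2(TPM + 1) was fitted with limma 3.58.1 (R 4.3.3), with a mean for each group over all 24 libraries, Benjamini-Hochberg adjustment over the 12373 genes with TPM above 1 in at least 1 library, and thresholds of adjusted p under 0.1 and, for DEGs, a fold change of at least 2. Fold changes are on this log2 scale and understate those of low genes. The script was tested on simulated data. Mouse numbers shared between GC and FL groups were not used to pair the libraries. Named genes were the 9 enzyme genes, Nfe2l2, list genes past the threshold or, at most 4 a list, with the highest mean TPM, and the 3 genes most alike to each enzyme gene. Those of Pgls are not reported here. The members and lists were chosen with earlier results of these data known. No 2 libraries were alike enough to be duplicates, with a median absolute log2 difference of 0.107 for the closest pair. Alternatives are given under the dependence on processing.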

Additional observations from a re-analysis of the deposited data

Results flagged for a closer look

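A sample lay far from the others of its group of 6 by Dixon's ratio of gap to range in 8 of 84 sets of values, where chance flags about 1 in 20. The values are not independent, since 5 of them come from GC-WT mouse 10. That mouse had ratios to Taldo1 of 0.16 for G6pdx, 0.335 for Pgd, 0.407 for Tkt and 0.326 for Aldh2, all low, and a high ratio of Pgls to G6pdx of 1.83. Its 5 promyelocyte markers summed to 650 TPM, the lowest of its group, and its 7 mature neutrophil markers to 48602 TPM and 12 erythroid markers to 203868 TPM, the highest of it. The erythroid sum was near the 192127 TPM of mouse 7. Mouse 10 was also lowest for marrow macrophage (61.9 TPM), megakaryocyte (88.7 TPM), stem and progenitor (8 TPM) and stromal and bone markers (30.7 TPM). Its share of small structural RNAs, 41.0%, was the lowest too. The sums of its other marker lists lay inside the range of the group. The part of these cells was not tested.

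Taldo1 at 99.6 TPM in FL-KO mouse 2 lay below the other FL-KO mice, and the small structural RNAs took 59.3% of the TPM of that library; their part was not tested. In FL-KO mouse 12 the ratio of Tkt to Taldo1 was low at 0.22, and in FL-KO mouse 4 the ratio of Pgls to G6pdx was high at 2.81.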

How the results depend on the processing

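Every fold change of the 8 genes kept its direction and its side of the threshold with a pseudocount of 0.1, with TPM above 1 in at least 6 libraries, with a mean-expression trend and with the compared groups fitted alone. With no filter on low values the calls of G6pdx and Pgd in FL-KO vs. GC-KO and of Pgls in KO mice on the ground were lost (adjusted p between 0.125 and 0.143). In KO against wild type, G6pdx, Pgd, Tkt, Me2, Idh1 and Aldh2 were lower under each scaling tried. The counts that moved were these. DEGs on the ground numbered 3, and 0 under median-of-ratios scaling, 1 under quantile normalization and 0 with GC content and length trends removed. Genes called between flight and ground numbered 0 in wild-type mice, and 4, 2 and 3 under the same alternatives. In KO mice they numbered 6, and 2, 2 and 1 under these. Without the 5 small RNAs there were 2, and without GC-KO mice 11 and 12 there were 0. With 1 library left out they ran from 2 (without FL-KO mouse 2) to 6. These counts take both directions together. The 6 in KO mice on TPM were all lower after flight. Under median-of-ratios scaling the 4 in wild-type and the 2 in KO mice were all higher, and those 2 were other genes, Taldo1 and Idh1. Scaling sets the median of all genes near 0 by construction; the cause of the other changes was not tested.

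Signs turned mostly in FL-WT vs. GC-WT. Under median-of-ratios, quantile and GC and length correction the log2 fold changes became 0.34, 0.14 and 0.23 for G6pdx, 0.21, 0.030 and 0.11 for Pgls, 0.33, 0.094 and 0.26 for Pgd, 0.21, 0.15 and 0.11 for Me2, and 0.29, 0.031 and 0.24 for Aldh2. Tkt was -0.015 without the small RNAs. With 1 library left out they ran from -0.18 to 0.081 for G6pdx, -0.21 to 0.083 for Pgd, -0.12 to 0.12 for Tkt, -0.040 to 0.14 for Taldo1, -0.014 to 0.21 for Idh1 and -0.25 to 0.016 for Aldh2. In FL-KO vs. GC-KO, Pgls was 0.060 (median-of-ratios) and 0.11 (GC and length), and Me2 0.016 (median-of-ratios) and 0.023 (quantile). Taldo1 was 0.36, 0.19 and 0.20 and Idh1 0.27, 0.26 and 0.072 under median-of-ratios, quantile and GC and length correction. Without the small RNAs these were 0.091 and 0.025, and without GC-KO mice 11 and 12 0.018 and 0.073. In KO against wild type, Pgls was 0.0094 on the ground under median-of-ratios, and 0.18 and 0.19 on the ground and after flight with GC and length correction. Taldo1 was 0.10 and 0.036 under median-of-ratios.

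The mouse number was not used to pair the libraries, and whether it pairs them was not settled. For deviations from group means, 7 of 12 same-numbered pairs had r above 0.1 (from -0.026 to 0.27). Of 24 libraries 8 correlated best with their own number. With the mouse number as a replicate block, no call of the 8 genes changed. Of them 0 were called between flight and ground in wild-type mice, 6 in KO mice and 0 for the interaction. Over all tested genes, those lower after flight (limma, adjusted p under 0.1) rose with the block from 4821 to 6080 in wild-type mice. In KO mice they rose from 6565 to 7487. The block cannot be fitted to genotype, since numbers are shared within a genotype only. TPM carries no depth, so counting error could not be separated from the spread between mice.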
